A study of Mus musculus with 12 samples.

Results

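The genes described are Srebf2, which encodes the transcription factor SREBP2, and 6 genes that cells switch on when sterol runs low: Insig1, Hmgcs1, Fdft1, Sqle, Cyp51 and Dhcr7. They were chosen by name, as rows of a table of read counts from mouse hypothalamus, and all 7 were found among its 78334 gene IDs and among the 25562 genes that passed a filter on low counts. The remaining genes of the route, and genes of sterol transport and fatty acid synthesis, were set beside them.

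SREBP2 is made as a precursor in the membrane of the endoplasmic reticulum. When membrane cholesterol is low it is escorted to the Golgi by SCAP, cut, and sent to the nucleus, where it turns on genes of cholesterol synthesis and uptake. Insig proteins hold the complex back when sterol is plentiful. The brain makes almost all of its own cholesterol, mostly in glia, and lower expression of Srebf2 and of sterol synthesis genes has been described in the hypothalamus of mice lacking insulin, which is the background to asking whether these genes differ in a diabetes model.

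The 12 libraries came from the hypothalamus of male C57BL/6 mice. The diabetes groups had 1 intraperitoneal dose of streptozotocin, a toxin of insulin-producing beta cells, at 70 mg/kg on postnatal day 2 and a diet with 60% of its energy as fat for 8 weeks from 3 weeks of age. They were given vehicle (diabetes, n = 4 libraries), curcumin at 50 mg/kg (n = 3) or aged garlic extract at 200 mg/kg (n = 2) daily by gavage for 28 days. The control group (n = 3) ate standard diet and was given vehicle. Streptozotocin is not stated for control, so the injection and the diet cannot be told apart in a comparison with it. Treatment began in week 7 of the diet according to the protocol and after 11 weeks according to the design text. Libraries are numbered within a group, but nothing in the labels ties each to its own mouse, so the p-values rest on variation among libraries and some of it may be technical. In bulk tissue, fewer cells of a type and less RNA per cell cannot be told apart.

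Library totals ran from 12950017 to 30271706 counts. Some libraries stood apart in their tissue markers. The summed level of 10 hypothalamic markers was 1326 to 1896 CPM (counts relative to the TMM-scaled library total) in control, 1974 to 4338 in diabetes and 847 to 1980 with garlic. With curcumin it was 441 and 1359 in replicates 1 and 3 and 6.16 in replicate 2, which nearly lacked these markers and had the highest myelin marker sum, 12110 CPM. Agrp was at 0 in all 4 diabetes libraries. Diabetes replicate 4 held 853 CPM of 6 pituitary markers, against at most 15.2 in any other library. Calls that change without these libraries, diabetes replicate 4 and curcumin replicate 2, are given beside the genes named. Control replicate 3 had the lowest sum of 8 astrocyte markers, 653 CPM, against 1752 to 3142 in the other 11 libraries. The diabetes and control libraries were separated in the sums of 4 of the 11 marker lists. Beside the hypothalamic markers, 5 blood markers summed to 264 to 1755 CPM in diabetes and 87.5 to 196 CPM in control. The 5 thalamus markers summed to 59.2 to 112 CPM and 138 to 299 CPM, and the 10 neuron markers to 3682 to 4285 CPM and 4484 to 4754 CPM. Their part in the differences below was not tested.

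The kind of control region these genes carry is shown for Srebf2, for Hmgcs1 near the head of the route, and for Cyp51 further along. The 150 bases before the start are printed. They are the RefSeq promoter sequences of GRCm38.p6, on the gene's own strand, at chr15:82147119-82147268 (plus strand), chr13:119690201-119690350 (plus) and chr5:4104698-4104847 (minus). Capitals mark matches, on either strand, to TCACNCCAC, a form of the sterol regulatory element, to CCAAT, the NF-Y box, and to GGGCGG, the Sp1 box.
Srebf2: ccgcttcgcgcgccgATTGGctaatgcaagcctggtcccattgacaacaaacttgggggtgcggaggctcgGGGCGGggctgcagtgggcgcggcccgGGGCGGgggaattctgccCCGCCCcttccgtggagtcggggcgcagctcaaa
Hmgcs1: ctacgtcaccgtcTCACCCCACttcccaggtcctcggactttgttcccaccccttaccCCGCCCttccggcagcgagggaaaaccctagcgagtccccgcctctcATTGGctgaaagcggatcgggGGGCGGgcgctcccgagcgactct
Cyp51: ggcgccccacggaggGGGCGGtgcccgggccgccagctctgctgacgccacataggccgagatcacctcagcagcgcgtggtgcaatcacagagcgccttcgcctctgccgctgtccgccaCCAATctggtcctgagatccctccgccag

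Of the 7 genes, 5 were matched in the promoter table (Srebf2, Insig1, Hmgcs1, Cyp51 and Dhcr7, but not Sqle and Fdft1), and the 250 bases before each start were searched. The form TCACNCCAC of the sterol element was found in Hmgcs1, at positions -137 to -129 relative to the start. Other forms of the element were not searched for, so a window without a match may still hold one. The 5 genes have 7 windows, 3 of them for Dhcr7. The form TCACNCCAC was in 1 of 7, against 1.05% of the 32851 promoter windows in the table. CCAAT was in 5 of 7 windows, against 33.8% of all, and GGGCGG in 6 of 7, against 32.7% of all. None of the matches overlapped another. A match describes the letters only.

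None of the 7 genes passed the threshold of 0.05 in edgeR's quasi-likelihood test with Benjamini-Hochberg adjustment over all genes. For diabetes against control 0 of 7 passed, where 0.0156% of all genes tested did. For curcumin against diabetes 0 of 7 passed, against 0.09% of all genes, and for garlic against diabetes 0 of 7, against 0% of all genes. The number with an unadjusted p under 0.05 was 0 of 7, 0 of 7 and 1 of 7 (Fdft1), where 12.3%, 17.2% and 10.9% of all genes tested had one. DESeq2 and limma-voom also called 0 of 7 in each. The 95% intervals of these 21 differences in the edgeR fit all lay within 2-fold, from -0.96 to 0.79 on the log2 scale. Ratios below 0.514 or above 1.73 were thus outside every interval of that fit. Intervals of alternative fits are not given. With a covariate for the number of detected genes, Insig1 moved to -0.65 for garlic against diabetes. That number was separated between garlic and diabetes, so the covariate cannot be fully told apart from the group difference there.

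**Figure D1:**
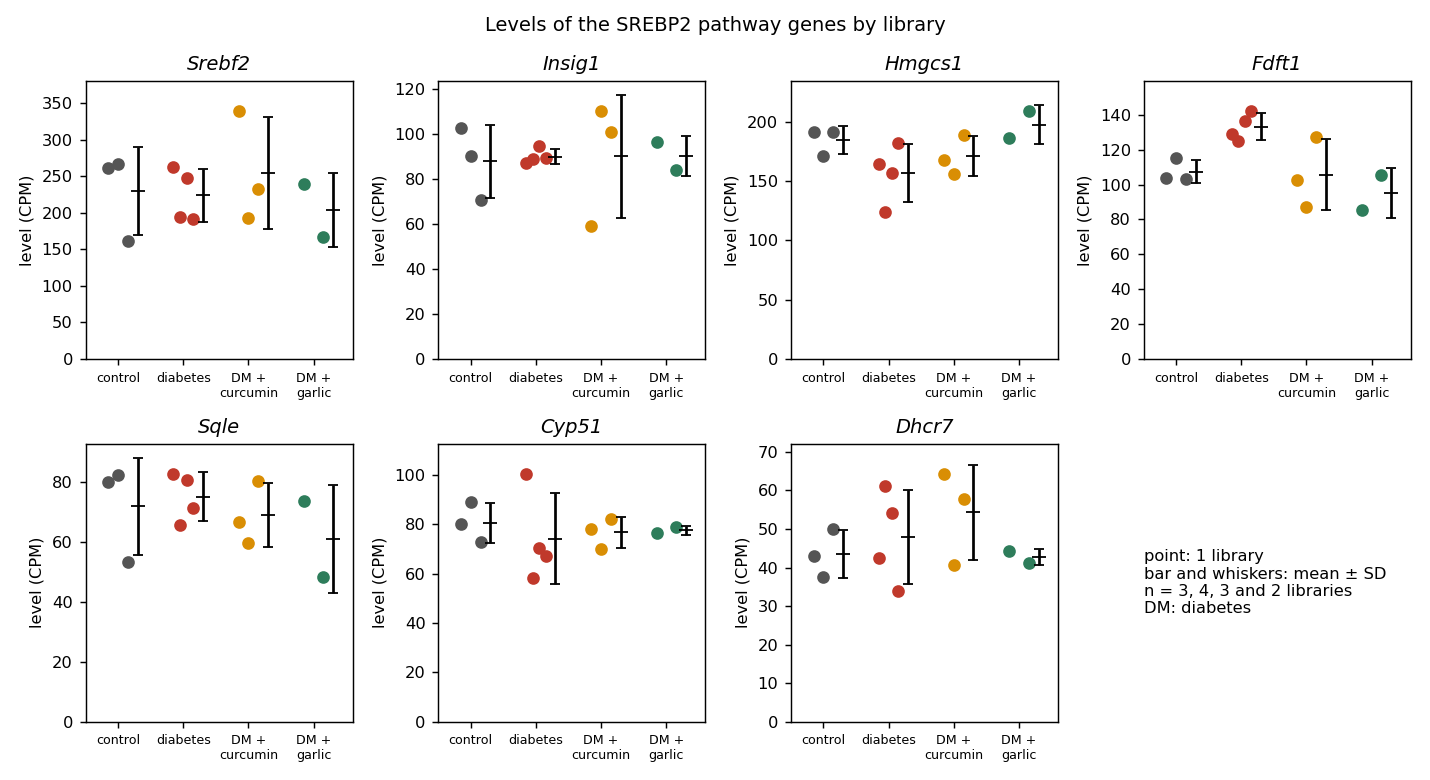
Level of each gene in CPM (y axis, from 0) by group (x axis); each point is 1 library, and the bar with whiskers beside it is the mean ± SD of 3, 4, 3 and 2 libraries. The 4 diabetes libraries of Fdft1, from 125 to 142 CPM, lie above the 3 control libraries, from 103 to 115 CPM, while the groups overlap for most other genes.

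Srebf2, the regulator, was at 262, 267 and 161 CPM in control replicates 1 to 3 and at 263, 195, 248 and 192 CPM in the 4 diabetes libraries. It was at 340, 192 and 232 CPM with curcumin and at 239 and 168 CPM with garlic. The highest library, curcumin replicate 1, was 2.11 times the lowest, control replicate 3, and the groups overlapped throughout. Mean levels were 230 ± 59.6 CPM in control (SD, n = 3), 224 ± 36.2 in diabetes (n = 4), 255 ± 76.1 with curcumin (n = 3) and 203 ± 50.7 with garlic (n = 2). The log2 fold change was -0.04 ± 0.25 (SE) for diabetes against control (edgeR adjusted p = 0.995), 0.18 ± 0.25 for curcumin against diabetes (adjusted p = 0.793) and -0.14 ± 0.28 for garlic against diabetes (adjusted p = 1). The sign of the first turned to 0.02 with RLE scaling or without the libraries that stood apart. Control replicate 3, lowest in Srebf2, is the library with the low astrocyte markers. None of the 8 was at 0 throughout a group, and the part of astrocyte content in the Srebf2 level was not tested.

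Insig1, which retains the SREBP complex in the endoplasmic reticulum and is itself a target of it, had the most even group means. It was at 103, 90.4 and 70.6 CPM in control, at 87.0, 88.8, 94.9 and 89.5 in diabetes, at 59.0, 110 and 101 with curcumin and at 96.7 and 84.1 with garlic. The diabetes libraries spanned a 1.09-fold range and the curcumin libraries a 1.87-fold range. Group means lay between 87.9 ± 16.2 CPM in control (SD, n = 3) and 90.4 ± 8.91 with garlic (n = 2). The log2 fold changes were 0.03 ± 0.23 (SE) for diabetes against control, 0.00 ± 0.23 for curcumin against diabetes and 0.01 ± 0.26 for garlic against diabetes, with adjusted p from edgeR of 0.995, 1 and 1.

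Hmgcs1 encodes the cytosolic HMG-CoA synthase, which acts early in the mevalonate route. Its level was 192, 171 and 191 CPM in control and 165, 124, 157 and 182 CPM in diabetes. It was 168, 156 and 189 CPM with curcumin and 186 and 209 CPM with garlic. Both garlic libraries lay above all 4 diabetes libraries, and the other main comparisons overlapped. Such separation was seen for 2 of 7 genes (Hmgcs1 and Fdft1) in garlic against diabetes, where 20.8% of all genes tested had it. The log2 fold change was 0.33 ± 0.22 (SE) for garlic against diabetes (edgeR adjusted p = 0.698), -0.23 ± 0.20 for diabetes against control (adjusted p = 0.762) and 0.12 ± 0.20 for curcumin against diabetes (adjusted p = 0.835). All 3 kept their sign in every alternative run.

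Fdft1 encodes squalene synthase, the first enzyme committed to sterols, and gave the largest differences. It was at 104, 115 and 103 CPM in control and at 129, 125, 136 and 142 CPM in diabetes. With curcumin it was at 102, 87.0 and 127 CPM, and with garlic at 85.2 and 105 CPM. All 4 diabetes libraries lay above all 3 control libraries and above both garlic libraries, while curcumin replicate 3 fell among the diabetes libraries. Fdft1 was the 1 of 7 genes whose control and diabetes libraries did not overlap, where 14.7% of all genes tested did not. For curcumin against diabetes 0 of 7 were separated, against 9.62% of all genes. Means were 107 ± 6.60 CPM in control (SD, n = 3), 133 ± 7.73 in diabetes (n = 4), 106 ± 20.4 with curcumin (n = 3) and 95.3 ± 14.3 with garlic (n = 2).

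The log2 fold change of Fdft1 was 0.31 ± 0.20 (SE) for diabetes against control, with an edgeR adjusted p of 0.598. It was -0.33 ± 0.20 for curcumin against diabetes (edgeR adjusted p = 0.416) and -0.48 ± 0.23 for garlic against diabetes (edgeR adjusted p = 0.452, from an unadjusted 0.0477). The 3 comparisons share the diabetes libraries. Over the alternatives the signs held, but with a covariate for the number of detected genes the size fell to 0.06, -0.24 and -0.08. Without diabetes replicate 4 and curcumin replicate 2 the curcumin value was -0.17. Thinned in expectation to the smallest library, the number of genes detected was 20133 to 22515 in the diabetes libraries, 25766 to 33157 in control and 33125 and 34719 with garlic. With curcumin, replicate 1 had 20917 genes and Fdft1 at 102 CPM, replicate 3 had 22337 and 127 CPM, and replicate 2 had 29126 and 87.0 CPM. Every diabetes library lay below every control and garlic library in the number of genes detected. For those comparisons the covariate thus cannot be fully told apart from the group difference. The part of this number in the differences was not tested further.

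Sqle encodes squalene epoxidase, a rate-limiting step after squalene. It was at 79.9, 82.4 and 53.2 CPM in control and at 82.8, 65.5, 80.8 and 71.1 CPM in diabetes. It was at 66.6, 59.5 and 80.4 CPM with curcumin and at 73.7 and 48.3 CPM with garlic. The lowest 2 values were those of garlic replicate 2 and control replicate 3, and no pair of groups was separated in the main comparisons. The log2 fold change was 0.06 ± 0.23 (SE) for diabetes against control, -0.12 ± 0.23 for curcumin against diabetes and -0.30 ± 0.26 for garlic against diabetes, with edgeR adjusted p of 0.987, 0.862 and 0.864. Without control replicate 3 the first was -0.11.

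Cyp51, which encodes lanosterol 14-alpha-demethylase, was at 80.1, 89.0 and 72.9 CPM in control, 101, 58.4, 70.3 and 67.4 in diabetes, 78.1, 69.9 and 82.2 with curcumin and 76.4 and 79.0 with garlic. Its highest and its lowest library were both in the diabetes group. Dhcr7 encodes 7-dehydrocholesterol reductase, which makes cholesterol itself in the last step of the Kandutsch-Russell branch. It was at 43.1, 37.4 and 49.9 CPM in control, 42.5, 61.1, 54.1 and 33.8 in diabetes, 64.4, 40.6 and 57.8 with curcumin and 44.3 and 41.2 with garlic. The diabetes libraries of Dhcr7 alone spanned a 1.81-fold range. Log2 fold changes for diabetes against control, curcumin against diabetes and garlic against diabetes were -0.12, 0.05 and 0.07 for Cyp51 and 0.14, 0.18 and -0.16 for Dhcr7, and each was smaller than its SE, which ran from 0.21 to 0.28.

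**Figure D2:**
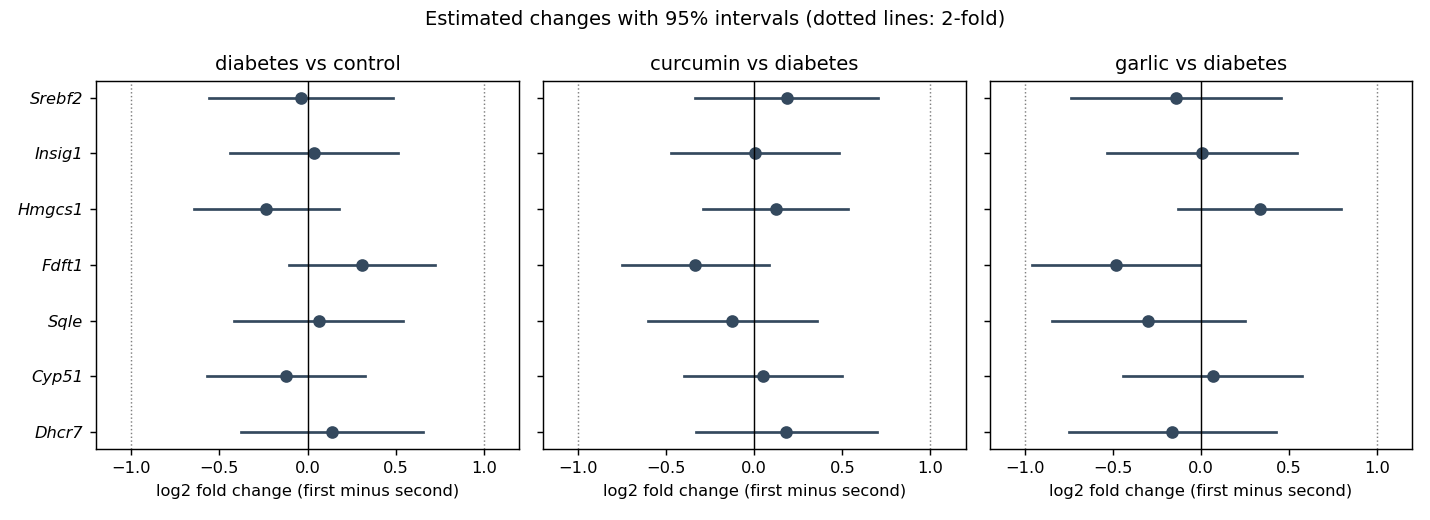
Log2 fold change of each gene (point) with its 95% interval (line) in the 3 main comparisons, from 1 edgeR fit over 12 libraries; dotted lines mark 2-fold. Every interval lies between the dotted lines, and the interval of Fdft1 for garlic against diabetes, from -0.96 to -0.01, is the one that leaves out 0.

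Among the 7 estimates for diabetes against control, 4 were above 0 and the median was 0.03, where the median of all 25562 genes was -0.07. For curcumin against diabetes 5 were above 0, with a median of 0.05 against 0.07 for all genes. For garlic against diabetes 3 were above 0, with a median of -0.14 against 0.07. Over the 7389 genes with exon lengths in the range of these genes, the medians were -0.10, 0.11 and 0.11. The remaining comparisons likewise gave 0 of 7 called. For curcumin against control, garlic against control and curcumin against garlic the edgeR test called 0% of all genes, and an unadjusted p under 0.05 was found for 0 of 7 genes in each, against 2.34%, 0.11% and 1.6% of all genes. The medians of the 7 were -0.02, -0.05 and 0.15, and single estimates ran from -0.24 for garlic against control to 0.35 for curcumin against garlic. All 42 intervals of the 6 comparisons lay between -0.96 and 0.97, a ratio of 0.514 to 1.95.

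The estimates of these genes were tighter than those of most genes. The SE of the 7 genes was 0.20 to 0.28 in the main comparisons. The median SE over all genes tested was 0.65, 0.65 and 0.73, and over the 4237 genes in the same range of levels it was 0.24, 0.24 and 0.27. Variation between libraries of a group differed among the 7. The pooled SD of log2 CPM within groups was 0.171 for Fdft1 and 0.172 for Hmgcs1, smaller than in all but 8.28% and 8.31% of the genes of like level. It was 0.225 for Cyp51, 0.274 for Sqle, 0.287 for Insig1 and 0.308 for Dhcr7. Srebf2 was the most variable, at 0.351, and 61.4% of the genes of like level had a smaller SD, whose median was 0.309.

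Per kilobase of exon, the order of the levels was the same at its lower end in all groups. Over the 12 libraries Hmgcs1 averaged 37.9 ± 4.88 CPM per kb (SD), Srebf2 32.0 ± 7.10, Insig1 29.0 ± 4.52 and Fdft1 26.9 ± 4.40. These 4 did not separate, since Hmgcs1 was above Srebf2 in 8 of 12 libraries, Srebf2 above Insig1 in 6 and Insig1 above Fdft1 in 6. Below them came Cyp51 at 17.5 ± 2.46, Sqle at 12.7 ± 2.14 and Dhcr7 at 8.17 ± 1.69 CPM per kb, and each step from Fdft1 down held in 12 of 12 libraries. In diabetes the mean of Fdft1, at 31.5 ± 1.83 CPM per kb (n = 4), stood next to Hmgcs1. Srebf2 was at 31.2 ± 5.04 there, and Fdft1 was above it in 2 of 4 libraries. Fdft1 was the fourth in the other groups, though with garlic Srebf2 was above it in 1 of 2 libraries.

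The levels of the 7 genes were mostly unrelated or weakly related across libraries. Over the 21 pairs, Pearson's r of log2 CPM across the 12 libraries ran from -0.40 (Insig1 with Dhcr7) to 0.71 (Srebf2 with Sqle), with a median of -0.01, and 9 pairs were above 0. For Srebf2 with Sqle, r was 0.706 (permutation p = 0.0097, adjusted over 21 pairs 0.204) and Spearman's rho was 0.72 (permutation p = 0.0107, adjusted 0.226), both two-sided. Without control replicate 3 and curcumin replicate 1, the libraries farthest from the Srebf2 median, r was 0.911. No other pair reached an unadjusted p of 0.05. The libraries differ in group and makeup, which all these pairs share, and the labels give no batch. Control replicate 3 had the lowest level of its group in Srebf2, Insig1, Fdft1, Sqle and Cyp51, and curcumin replicate 2 that of its group in every gene but Insig1.

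Of the 5 genes outside the set whose log2 CPM was most like the mean standardised level of the 7 over the 12 libraries, among 11494 genes, 4 are named here: Usp14 (Pearson's r = 0.878), Arl10 (0.863), Mavs (0.835) and Wdr6 (0.831). Each of the 7 is part of that mean level with equal weight, but they followed it unequally. Sqle followed it with r = 0.862 and Srebf2 with r = 0.708, and Dhcr7 with r = 0.089. These values describe the libraries and were not tested.

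The rest of the route gave no call either. Of the 20 enzymes from acetyl-CoA to cholesterol, which include Hmgcs1, Fdft1, Sqle, Cyp51 and Dhcr7, 0 passed edgeR's test in any main comparison. For diabetes against control 14 of 20 estimates were above 0, with a median of 0.10, and 3 had an unadjusted p under 0.05, all higher. For curcumin against diabetes the median was -0.13 with 3 lower at that level, and for garlic against diabetes -0.17 with 4 lower. An unadjusted p under 0.05, in either direction, was found for 12.3%, 17.2% and 10.9% of all genes tested. The medians of all genes were -0.07, 0.07 and 0.07. With a covariate for the number of detected genes the direction of the 20 enzymes turned in 2 comparisons. In these, that number separated the groups, so the covariate cannot be fully told apart from the group difference. For diabetes against control the median was -0.05 with 9 of 20 above 0, and for garlic against diabetes 0.04 with 11 of 20 above 0. DESeq2 and limma-voom called 0 of 20 in each. Msmo1, a sterol demethylase subunit, was at 116 ± 14.96 CPM in diabetes (SD, n = 4) and 86.9 ± 13.9 in control (n = 3). Its log2 fold changes were 0.42, -0.37 and -0.57.

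**Figure D3:**
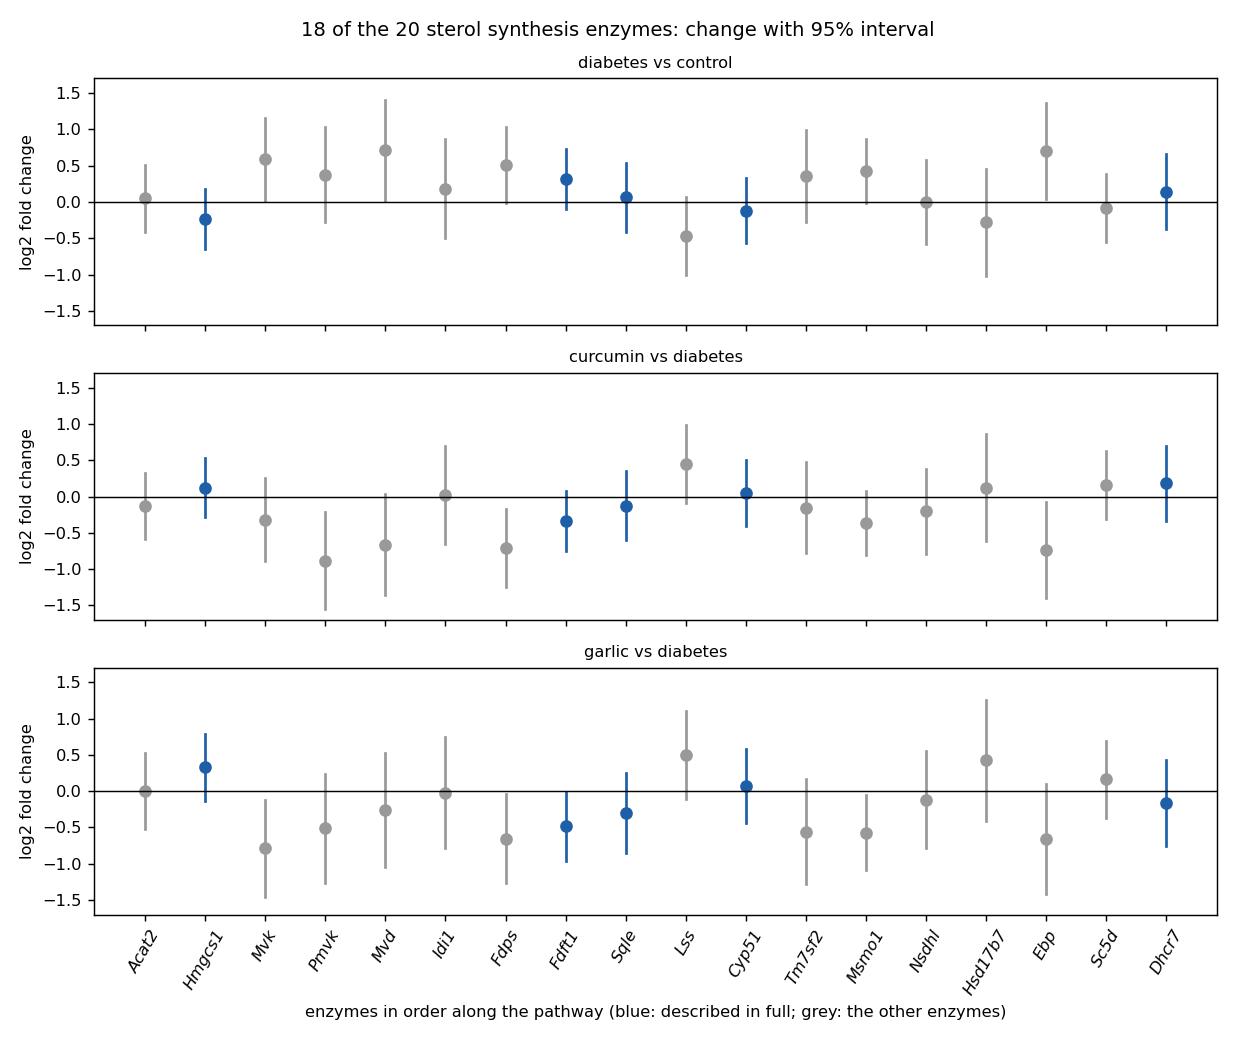
Log2 fold change (point) with 95% interval (line) of 18 of the 20 sterol synthesis enzymes, in order along the route from left to right, in the 3 main comparisons; blue marks the 5 enzymes described in full. Mvk, Mvd and Ebp lie above 0 for diabetes against control with intervals that leave out 0, while Fdps and Pmvk lie below 0 with such intervals for curcumin against diabetes.

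The enzymes at an unadjusted p under 0.05 are named here after their values were seen. In diabetes against control they were Mvk (log2 fold change 0.59) and Mvd (0.71), which act on mevalonate and its diphosphate, and Ebp (0.70), a late sterol isomerase. In curcumin against diabetes they were Pmvk (-0.88), Fdps (-0.71) and Ebp (-0.73). In garlic against diabetes they were Mvk (-0.79), Fdps (-0.65), Msmo1 (-0.57) and Fdft1. Their smallest adjusted p in edgeR was 0.389, 0.181 and 0.399. Without curcumin replicate 2, Pmvk (-1.37, edgeR adjusted p = 0.00932) and Ebp (-1.08, adjusted p = 0.0474) passed the threshold against diabetes. Without it and diabetes replicate 4, Pmvk did (-1.40, edgeR adjusted p = 0.0275). For curcumin against diabetes, the fit on all 12 libraries called 23 genes over the whole table. The fit without curcumin replicate 2 called 1975, and the fit without both libraries called 1076. These table-wide counts also stand beside the calls without these libraries given below. Without curcumin replicate 1, neither Pmvk (-0.59, edgeR adjusted p = 0.542) nor Ebp (-0.48, adjusted p = 0.66) passed.

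Several of these enzymes have short transcripts, and differences ran with exon length. Over the 20 enzymes Pearson's r between log2 fold change and log exon length was -0.62 for diabetes against control, 0.71 for curcumin against diabetes and 0.47 for garlic against diabetes. Over 11782 protein-coding genes of at least 5 CPM it was -0.59, 0.58 and 0.59. These are correlations across genes, which are not independent replicates. The 5 shortest enzymes (Pmvk, Mvd, Ebp, Acat2 and Mvk, 1.71 to 2.68 kb) were above 0 in 5 of 5 for diabetes against control and below 0 in 5 of 5 for curcumin and 4 of 5 for garlic against diabetes. Lss, the longest at 10.8 kb, was at -0.47, 0.45 and 0.50. The 7 genes span 3.09 to 7.18 kb. With a correction for length the median of the 20 was 0.18, -0.03 and -0.18, and the log2 fold change of Fdft1 was 0.36, -0.35 and -0.53. For curcumin against diabetes, that correction put Pmvk at -0.54 (edgeR adjusted p = 0.296) and Ebp at -0.50 (adjusted p = 0.442).

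**Figure D4:**
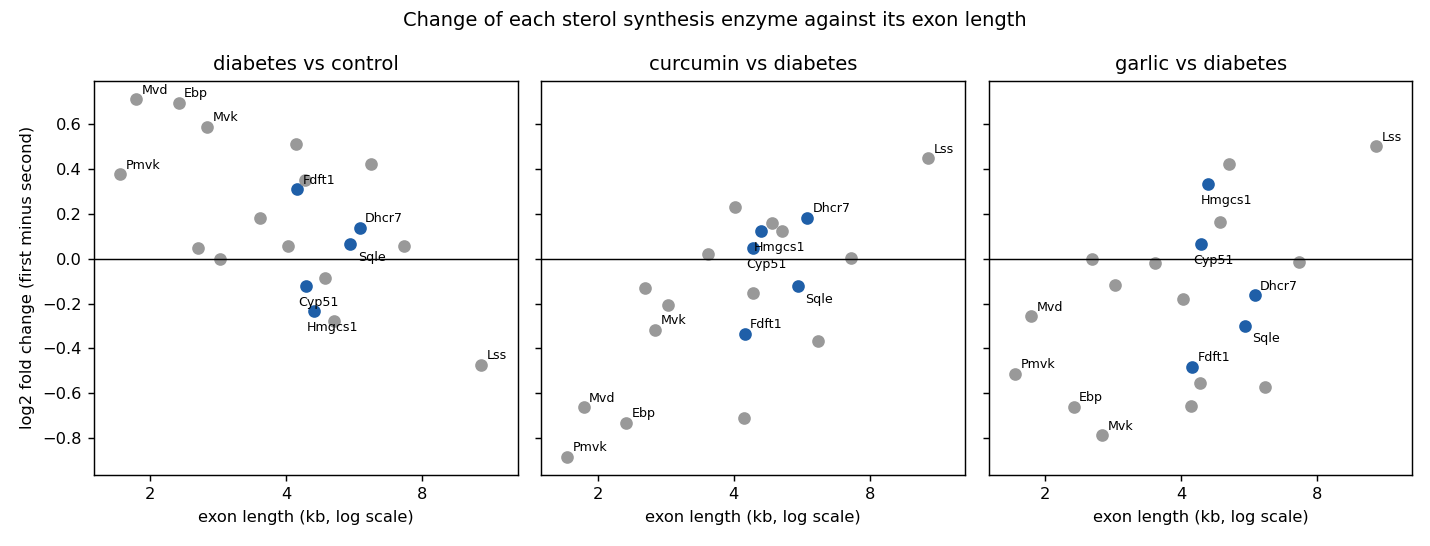
Log2 fold change of each of the 20 enzymes (y axis) against its exon length in kb (x axis, log scale) in the 3 main comparisons; blue marks the 5 enzymes described in full. Short enzymes such as Mvd and Ebp lie highest for diabetes against control and among the lowest for curcumin against diabetes, and Lss, the longest, lies at the opposite end.

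The proteins that move and control SREBP gave 0 of 13 genes at an unadjusted p under 0.05 in each main comparison, against 12.3%, 17.2% and 10.9% of all genes. The medians of the 13 were -0.04, 0.18 and 0.08, where those of all genes were -0.07, 0.07 and 0.07. With the length correction all 3 turned, to 0.135, -0.09 and -0.02. Marchf6, a ubiquitin ligase that acts on sterol-regulated proteins, was at 192 ± 14.3 CPM in diabetes (SD, n = 4) and at 239 ± 24.1 CPM in control (n = 3). The 12 genes of fatty acid synthesis under SREBP1 also gave 0 at an unadjusted p under 0.05, with medians of -0.05, 0.32 and 0.17. With the length correction the first turned to 0.06. Mid1ip1, which promotes the polymerisation of acetyl-CoA carboxylase, was at -0.46 for curcumin against diabetes. It passed without curcumin replicate 2 (-0.93, edgeR adjusted p = 0.0181) and without that replicate and diabetes replicate 4 (-0.88, adjusted p = 0.0473). It did not pass with the length correction (-0.19, edgeR adjusted p = 0.746) or without curcumin replicate 1 (-0.20, adjusted p = 0.896). Fasn and Scd2, the most abundant of these, had log2 fold changes of 0.05 and -0.08 for diabetes against control. In control replicate 3 Fasn was at 203 CPM and Scd2 at 695 CPM, each the lowest of the 12 libraries.

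Among 11 genes of sterol uptake and transport, 0 passed edgeR's test on all 12 libraries. An unadjusted p under 0.05 was found for 1, 5 and 1 genes in diabetes against control, curcumin against diabetes and garlic against diabetes. Of all genes tested, 12.3%, 17.2% and 10.9% had one. The medians of the 11 genes were -0.23, 0.22 and 0.20, and with the length correction the first and the last turned, to 0.05 and -0.14. Npc2, which carries cholesterol out of lysosomes, had log2 fold changes of 0.62, -0.76 and -0.53, and Lrp1, a large receptor for apolipoprotein E, of -0.21, 0.66 and 0.12. Against diabetes, with curcumin, 3 of the 11 passed without curcumin replicate 2: Npc2 (-1.24, edgeR adjusted p = 0.00507), Lrp1 (0.99, adjusted p = 0.0296) and Tmem97 (-1.55, adjusted p = 0.0414). That fit called 1975 genes over the whole table. Without curcumin replicate 2 and diabetes replicate 4, Npc2 passed (-1.25, edgeR adjusted p = 0.0173). With the length correction Npc2 was at -0.91, Tmem97 at -0.59 and Lrp1 at 0.02 (edgeR adjusted p = 0.982 for Lrp1). Lrp1 was at 1361 CPM in curcumin replicate 1 and at 454 and 721 CPM in replicates 2 and 3. Without curcumin replicate 1 its log2 fold change was 0.13 (edgeR adjusted p = 0.947). Of the 9 genes for other products of the mevalonate route, Fnta, a prenyltransferase subunit, had an unadjusted p of 0.0306 for diabetes against control (log2 fold change 0.48, adjusted p = 0.365 in edgeR), and Coq2 was at 0.15. The list's medians were 0.09, -0.11 and -0.10.

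The largest estimates in all these lists were those of Apoe, for sterol transport between cells. Apoe, the main lipid carrier of the brain, was at 2670, 2753 and 974 CPM in control and at 5511, 3882, 8081 and 5867 CPM in diabetes. It was at 1704, 3778 and 2067 CPM with curcumin and at 2095 and 2314 CPM with garlic. Every diabetes library lay above every library of the other groups. The log2 fold change was 1.45 ± 0.37 (SE) for diabetes against control, -1.21 ± 0.37 for curcumin against diabetes and -1.40 ± 0.43 for garlic against diabetes, with edgeR adjusted p of 0.151, 0.134 and 0.28. None passed, although DESeq2 and the edgeR fit without a filter called all 3, and limma-voom called the first and the last. With only the 2 groups in the edgeR fit, diabetes against control passed (1.41, adjusted p = 0.0485). Curcumin against diabetes passed in edgeR without curcumin replicate 2 (-1.59, adjusted p = 0.0138) and without it and diabetes replicate 4 (-1.62, adjusted p = 0.0357). Over all alternatives the adjusted p ran from 1.05e-07 to 0.615, from 1.11e-05 to 0.392 and from 6.57e-05 to 1 in the 3 comparisons. Apoe has 2.14 kb of exon. With the length correction its values were 1.15, -0.92 and -1.1, and none passed (edgeR adjusted p of 0.243, 0.212 and 0.421). Apoe is made mainly by astrocytes and microglia. The 8 astrocyte markers summed to 1752 to 2241 CPM in diabetes and 653 to 2611 CPM in control, and the 7 microglia markers to 181 to 326 CPM and 206 to 252 CPM. The part of either in the Apoe level was not tested. Abca1, the cholesterol exporter, named after its values were seen, was at 1.13 for curcumin against diabetes (adjusted p = 0.137 in edgeR) and 1.07 for garlic against diabetes, and has 10.4 kb of exon. The curcumin comparison passed in edgeR without a filter (1.13, adjusted p = 0.0111) and without curcumin replicate 2 (1.42, adjusted p = 0.0189). It also passed without that replicate and diabetes replicate 4 (1.42, adjusted p = 0.0473). It did not pass with the length correction (0.70, edgeR adjusted p = 0.283) or without curcumin replicate 1 (0.80, adjusted p = 0.455). Cyp46a1, which turns over cholesterol in neurons, was at 138 ± 6.66 CPM in diabetes and 164 ± 11.1 in control, with a log2 fold change of -0.25 ± 0.20 (adjusted p = 0.735 in edgeR). Of the 12 genes tested in this list, 2, 3 and 2 had an unadjusted p under 0.05, against 12.3%, 17.2% and 10.9% of all genes. The medians of the 12 were 0.04, 0.29 and 0.05, and with the length correction the last turned to -0.08.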

How the data were processed

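Processing is described here for RNA sequencing of mouse hypothalamus. The deposited values are raw read counts per gene. RNA was extracted with Trizol and libraries made with a stranded poly-A kit, per the labels' protocols. FastQC, featureCounts and GRCm39 are named, per the submitters' processing notes. The sources used here do not give the aligner, annotation release or strand setting, so genes that overlap or share reads with copies are uncertain. Gene symbols came from GENCODE M21 and gene-name tables and matched 65.7% of IDs and 97.8% of counts. Exon lengths came from GENCODE M21, whose build differs, so no gene coordinates are given.

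Counts were filtered with filterByExpr, scaled by TMM and fitted over all 12 libraries with edgeR 4.0.16 (R 4.3.3), as a quasi-likelihood test with Benjamini-Hochberg adjustment over 25562 genes at a threshold of 0.05. SE is the log2 fold change divided by the root of F. Log2 CPM used a prior count of 2. The test was checked on simulated counts. Pairs of libraries differed by a chi-square of at least 20.0 per degree of freedom, so none was counted as a repeat. Pair correlations were tested with 100000 resamples, a test added after the data were seen. Alternatives were RLE scaling, other filters, DESeq2 1.42.0, limma-voom (limma 3.58.1), 2-group fits, a replicate block, a covariate for detected genes, a length correction and fits without libraries. The members and gene lists were chosen with earlier results of these data known. Besides the members, the 2 most abundant genes of each list and the 5 genes most like the members were named by rule. Some genes that the rule names are not reported here.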

Additional observations from a re-analysis of the deposited data

Results flagged for a closer look

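The diabetes group, the only one with 4 libraries, was searched for a library far from the other 3 in 18 measures (the 7 genes and 11 marker sums). A library was picked out in 2 of the 18, where chance picks one out in about 1 in 20. The summed pituitary markers were at 853 CPM in diabetes replicate 4 (a gap to the nearest library of 0.997 of the group's range), and the summed blood markers at 1755 CPM in the same library (0.863 of the range).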

How the results depend on the processing

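None of the 7 genes passed the threshold in any of the 96 alternative fits of a comparison, and the smallest adjusted p in the main comparisons was 0.219, 0.316 and 0.182 for diabetes against control, curcumin against diabetes and garlic against diabetes. The number of genes called over the whole table depended on the settings. For diabetes against control it was 4 (all higher), 6 with RLE scaling, 468 with no filter, 0 with a stricter filter, 528 in DESeq2 (475 higher), 1177 in limma-voom, 342 with only the 2 groups, 1 without the libraries that stood apart, 0 with the covariate for detected genes or the length correction, and 0 to 1 leaving out 1 library. For curcumin against diabetes it was 23 (1 higher), 123 with RLE scaling (12 higher), 1128 with no filter, 2 with a stricter filter, 1059 in DESeq2 (389 higher), 123 in limma-voom, 0 with only the 2 groups, 1076 without the libraries that stood apart, 376 with the covariate, and 1 to 1975 leaving out 1 library, the most without curcumin replicate 2. For garlic against diabetes it was 0, 356 with no filter, 432 in DESeq2, 429 in limma-voom, 1 without the libraries that stood apart and 0 to 52 leaving out 1 library. Curcumin against control gave 0, then 43 with no filter, 5 in DESeq2, 16 without the libraries that stood apart and 0 to 49 leaving out 1. Garlic against control gave 3 with no filter. Curcumin against garlic gave 45 with no filter, 7 in DESeq2, 1 without the libraries that stood apart and 0 to 18 leaving out 1. The median of the 7 genes moved, for diabetes against control, to -0.17 with the covariate, 0.22 with the length correction and from -0.11 to 0.13 leaving out 1 library, and for garlic against diabetes to 0.19, -0.33 and from -0.23 to 0.044. For curcumin against garlic it was -0.17 with the covariate and from -0.00946 to 0.21 leaving out 1 library. Signs turned in 18 of 119, 17 of 119 and 13 of 112 alternative values of single genes, all of main sizes up to 0.138, 0.184 and 0.298. For diabetes against control, Srebf2 was at 0.0192 with RLE scaling and in DESeq2, at 0.0221 without the libraries that stood apart and at 0.22 with the length correction, Insig1 at -0.0587 in limma-voom, -0.00194 with only 2 groups and -0.0627 with the length correction, Sqle at -0.0195 in limma-voom and -0.17 with the covariate, and Dhcr7 at -0.0863 with the covariate. For curcumin against diabetes, Insig1 was at -0.0363 with RLE scaling, -0.0362 in DESeq2, -0.0236 with a stricter filter, -0.000907 with only 2 groups, -0.16 without the libraries that stood apart and -0.18 with the covariate, and Srebf2 at -0.10 with the length correction. For garlic against diabetes, Insig1 was at -0.0468 with RLE scaling, -0.0467 in DESeq2, -0.017 with a stricter filter, -0.00368 in limma-voom and -0.65 with the covariate, Srebf2 at 0.51, Sqle at 0.0563 and Dhcr7 at 0.19 with the covariate, and Cyp51 at -0.000178 with the length correction. Leaving out 1 library gave, for diabetes against control, -0.24 to 0.0838 for Srebf2, -0.10 to 0.16 for Insig1, -0.11 to 0.17 for Sqle and -0.00313 to 0.27 for Dhcr7. Leaving out 1 library gave, for curcumin against diabetes, -0.08 to 0.39 for Srebf2, -0.13 to 0.23 for Insig1, -0.25 to 0.00794 for Sqle and -0.0491 to 0.23 for Cyp51. Leaving out 1 library gave, for garlic against diabetes, -0.43 to 0.0955 for Srebf2, -0.11 to 0.10 for Insig1 and -0.0315 to 0.25 for Cyp51. The cause of these shifts was not tested. The number of detected genes separates diabetes from control and from garlic. Values with that covariate cannot be fully told apart from the group difference there. Replicate numbers are shared between groups. Among control, diabetes and curcumin, correlations of deviations between same-numbered libraries ran from -0.281 to 0.18. With garlic they ran from -0.319 to 0.543, but its 2 libraries deviate from their mean as mirror images, so 1 value fixes the other. Not every library correlated best with its own number, and the numbers were not taken as pairs. A replicate block gave 1, 47 and 1 genes called in the main comparisons, 0 of the 7 among them, with Srebf2 at 0.0383 for diabetes against control and Insig1 at -0.0107 for curcumin against diabetes. The lowest count of any of the 7 genes in a library was 622.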
